A study of Mus musculus with 6 samples.

Results

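The genes described here are 42 genes of glycolysis and of the response to low oxygen, chosen by symbol from a fixed list of enzymes, carriers, oxygen sensors and hypoxia-induced genes. They occupied 43 of the 60832 rows of the deposited gene table, because Aldoa had 2 rows. RNA-seq had been performed on liver sinusoidal endothelial cells (LSECs), which form the wall of the liver's smallest vessels, taken from mice that carried liver tumours grown from HCT116 cells, an established line of human colorectal cancer, as a model of colorectal cancer liver metastases (CRCLM). There were 3 libraries from bevacizumab-sensitive and 3 from bevacizumab-resistant CRCLM xenografts. Bevacizumab is an antibody that blocks VEGF-A, the growth factor that drives the sprouting of blood vessels. By the study's methods, the hosts were male BALB/c-Nu mice, which lack mature T cells but keep macrophages, neutrophils and B cells, and the resistant model was made by repeated intraperitoneal injection of bevacizumab while vehicle mice received IgG. The labels do not say which of these treatments the mice of the sensitive group had received. In both groups the cells were isolated with anti-CD146 beads, and the labels describe them as cultured for 24 h. The labels number the replicates of each group but do not say whether each came from a separate mouse, so p-values measure only the spread between these libraries.

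Glycolysis splits glucose to pyruvate in the cytosol, and lactate dehydrogenase turns the pyruvate into lactate where mitochondria are not used to burn it. Endothelial cells and activated macrophages both draw much of their energy from this route. When oxygen is plentiful, prolyl hydroxylases (PHDs, encoded by the Egln genes) mark the alpha subunits of hypoxia-inducible factor (HIF) for destruction, and when oxygen is short the alpha subunit survives, pairs with ARNT and binds DNA at hypoxia response elements. Many glycolytic enzymes, the glucose carrier GLUT1 and several of the PHDs themselves are HIF targets, and much of the control of HIF alpha is on the protein, which RNA-seq does not measure.

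Glycolytic transcripts were abundant in all 6 libraries, and no gene of the set differed between the groups at an adjusted p under 0.05. Of the 43 rows, 41 passed the filter on low counts and were tested, and 0 had an adjusted p under 0.05 by the quasi-likelihood test of edgeR and Benjamini-Hochberg adjustment (0% of all 15474 genes tested did so). The members' adjusted p-values were between 0.940 and 0.996. At an unadjusted p under 0.05 there were 476 genes, and DESeq2's Wald test called 24 genes at an adjusted p under 0.05, none of them a member (smallest adjusted p of a member in DESeq2 0.547). A single member, Pfkfb4, had an unadjusted p under 0.05 and was lower in LSECs from resistant xenografts, against 3.08% of all genes in either direction. In 3 members, Pfkp, Egln1 and P4ha1, all resistant libraries lay above all sensitive ones in CPM, the count scaled to the library total, which held for 5.01% of all genes. In 2 members, Pfkfb4 and Adm, all resistant libraries lay below all sensitive ones, against 3.38% of all genes. Of the 41 tested members, 23 had a log2 fold change above 0 (50.8% of all genes did), and their median log2 fold change was 0.08, against 0.01 over all genes. The median standard error of a member's log2 fold change was 0.31. Fold changes are of the resistant over the sensitive group after TMM scaling, while levels are plain CPM or, for comparisons between genes, FPKM, which also divides by transcript length.

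The libraries held between 17599326 and 20726684 counts, so that 3 counts corresponded to between 0.145 and 0.170 CPM, a floor that covers counting error only. Replicate 2 of the sensitive group stood apart, with a median correlation with the other libraries of 0.872 against 0.957 to 0.963 for each of the others. Among the 40 members with at least 10 counts in every library, it was the highest of the 6 libraries for 9 and the lowest for 16. By the study's methods, flow cytometry, which reads surface protein, found the isolated LSECs to be CD146-positive at high purity. The labelled cell type was checked here against the RNA of marker genes. The summed level of 18 macrophage and Kupffer cell markers was between 27537 and 41942 CPM, that of 16 LSEC markers between 151 and 534 CPM, and that of 16 pan-endothelial markers between 84.5 and 553 CPM. The gene of the bead target CD146, Mcam, was listed with 6 to 79 counts. All 18 macrophage and all 16 pan-endothelial markers were above 0 in every library. So were the 16 LSEC markers, except F8 in sensitive replicate 2, so the cell types differed in level and not in detection. The sums of 10 hepatocyte, 10 stellate cell and 8 epithelial markers were at most 156, 363 and 292 CPM. The values below are therefore levels in libraries labelled as LSECs in which macrophage markers far exceeded endothelial ones, and fewer cells of a type and less RNA per cell cannot be told apart in them.

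**Figure D1:**
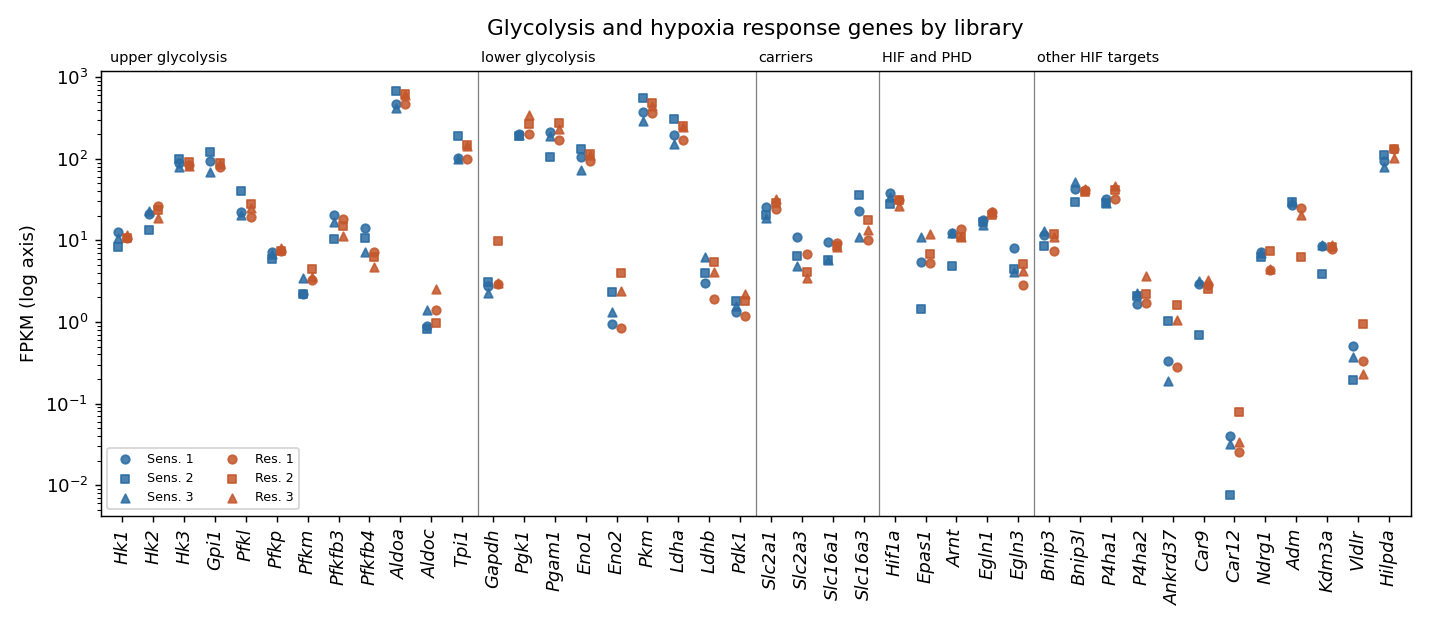
FPKM (log axis) of each gene in the 6 libraries, with sensitive libraries in blue and resistant in orange and replicates 1, 2 and 3 as circles, squares and triangles. Aldoa, Pkm, Pgk1, Ldha and Pgam1 had the highest mean levels, Gapdh lay between 2.30 and 9.94 FPKM, and Car12 was near 0 in all libraries.

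By FPKM the most abundant members were the enzymes of the lower and middle part of the pathway. Aldoa, the aldolase that splits fructose 1,6-bisphosphate, had a mean level over all libraries of 544 FPKM. Pkm, the pyruvate kinase that makes the last ATP of the pathway, followed at 423 FPKM, Pgk1 (phosphoglycerate kinase) at 234, Ldha (lactate dehydrogenase A) at 220 and Pgam1 (phosphoglycerate mutase) at 197 FPKM. In all, 8 members averaged at least 100 FPKM. The other 3 were Tpi1 (triose phosphate isomerase) at 131, Hilpda at 108 and Eno1 (enolase 1) at 106 FPKM. Hilpda, which encodes a small protein of lipid droplets that inhibits the triglyceride lipase ATGL, was the only gene of these 8 that is not a glycolytic enzyme.

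The most abundant enzymes varied more between libraries of the sensitive group than between the groups. Aldoa had 1371, 1953 and 1215 CPM in sensitive replicates 1 to 3 and 1380, 1835 and 1751 CPM in resistant replicates 1 to 3 (1513 ± 389 and 1655 ± 242, SD, n = 3 each). Pkm had 1893, 2800 and 1475 CPM in the sensitive and 1831, 2434 and 2252 CPM in the resistant libraries. Ldha had 648, 1007 and 507 CPM in the sensitive and 559, 835 and 815 CPM in the resistant libraries. In all 3 genes the highest and the lowest library were both of the sensitive group, replicate 2 the highest and replicate 3 the lowest. Their log2 fold changes were 0.04 ± 0.31 (SE) for Aldoa, -0.01 ± 0.35 for Pkm and -0.06 ± 0.37 for Ldha, each smaller than its error. The fold change of each was above 0 without sensitive replicate 2 and below 0 without sensitive replicate 3. Tpi1, Eno1 and Gpi1, the glucose-6-phosphate isomerase, were also highest in sensitive replicate 2, at 529.6, 719 and 793 CPM, and had log2 fold changes of -0.12, -0.04 and -0.25.

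Pgk1 and Pgam1 did not follow this pattern. Pgk1 had 456, 434 and 436 CPM in the sensitive and 448, 607 and 771 CPM in the resistant libraries, so that 2 of 3 resistant libraries lay above every sensitive one and the other lay among them. Its log2 fold change was 0.40 ± 0.26 (SE, edgeR unadjusted p = 0.173, adjusted p = 0.940). Pgam1 had 424, 211 and 374 CPM in the sensitive and 338, 541 and 456 CPM in the resistant libraries, with a log2 fold change of 0.37 ± 0.30. Sensitive replicate 2, the highest library for Aldoa, Pkm and Ldha, was the lowest for Pgam1.

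Several of these genes have near-identical copies in the mouse genome, and how reads that match several genes were counted is not given in the sources used here, so their levels are uncertain. Eno1b, a copy of Eno1, was listed with 3001 to 5342 counts against 8137 to 12649 for Eno1. Pgam1-ps2 had 44 to 215 counts, Pgk1-rs7 80 to 135, Tpi-rs11 56 to 138 and Ldha-ps2 14 to 35. Gapdh, the dehydrogenase between the triose phosphates and Pgk1 and a gene often used as a loading control, was listed with only 195 to 812 counts, whereas Pgk1, the next enzyme in the pathway, had 7631 to 14827. By length Gapdh stood at a mean of 4.004 FPKM and Pgk1 at 234 FPKM. Gapdh had 11.4, 12.8 and 9.49 CPM in the sensitive and 12.1, 41.1 and 12.4 CPM in the resistant libraries. Its log2 fold change of 0.90 ± 0.54 (SE), the largest of any member, came with 1 library, resistant replicate 2. Without that replicate it was 0.03. The Gapdh copies read here had few counts, 0 to 2 for Gapdh-ps14, 0 to 4 for Gapdh-ps15 and 8 to 18 for Gapdh-ps16. Copies not named after Gapdh were not read, and the reason for its low count was not tested. Because Gapdh is a gene with many processed copies, neither its level nor its difference is given here as more than a listed value.

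**Figure D2:**
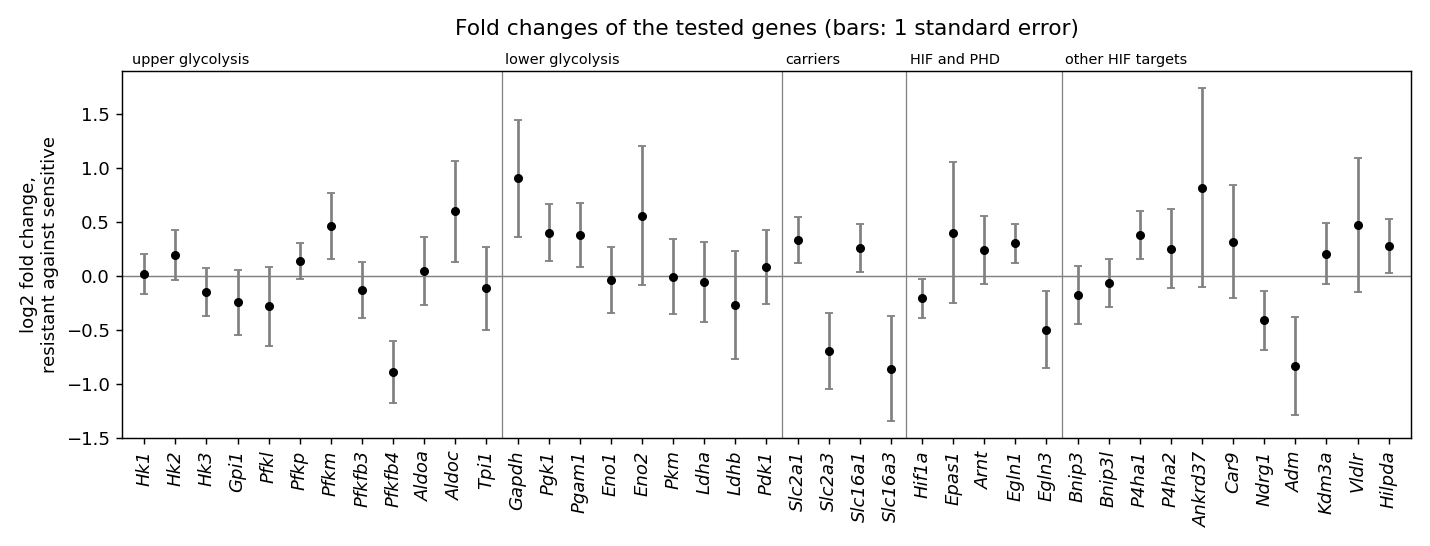
Log2 fold change of the resistant over the sensitive group for the 41 tested rows, ordered by role, with bars of 1 standard error. Pfkfb4, Slc16a3, Adm and Slc2a3 lie lowest, between -0.89 and -0.70, and Gapdh and Ankrd37 highest, at 0.90 and 0.81 with wide errors.

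Pfkfb4 was the member with the smallest p. It encodes a bifunctional enzyme that makes and breaks fructose 2,6-bisphosphate, the main activator of phosphofructokinase, and lies at chr9:108991778-109032228 on the plus strand of GRCm38. Its level was 69.6, 51.9 and 35.0 CPM in sensitive replicates 1 to 3 and 34.8, 30.1 and 23.1 CPM in resistant replicates 1 to 3 (52.1 ± 17.3 and 29.4 ± 5.86, SD, n = 3 each). The groups did not overlap, but sensitive replicate 3 and resistant replicate 1 differed by less than 1 CPM. The log2 fold change was -0.89 ± 0.29 (SE), a level 1.86-fold lower in the resistant group, with an edgeR unadjusted p of 0.0179 and an adjusted p of 0.940. Without sensitive replicate 1 or without resistant replicate 3 the unadjusted p exceeded 0.05, reaching at most 0.072, and the log2 fold change stayed between -1.11 and -0.71 with any single library left out.

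Pfkfb3, its paralogue and the form most studied in sprouting endothelium, showed no such difference. It had 153, 78.4 and 129 CPM in the sensitive and 138, 115 and 85.8 CPM in the resistant libraries, with a log2 fold change of -0.13 ± 0.26. As a share of the FPKM of both genes, Pfkfb3 made up 58.7%, 49.4% and 70.4% in the sensitive libraries and 71.8%, 71.1% and 70.5% in the resistant ones. The groups did not overlap in this share, though the gap between sensitive replicate 3 and resistant replicate 3 was a fraction of a percentage point. The resistant libraries were close together (71.2 ± 0.66%, SD, n = 3) and the sensitive ones spread out (59.5 ± 10.5%, SD, n = 3). An exact permutation test of 3 against 3 libraries cannot go below 0.1, so shares are given without a test.

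The 4 members with the lowest log2 fold changes were Pfkfb4, Slc16a3, Adm and Slc2a3, of which 2 are carriers. Slc16a3, which encodes the lactate exporter MCT4, had 123, 193 and 58.2 CPM in the sensitive and 54.3, 94.0 and 71.6 CPM in the resistant libraries. Its first 2 sensitive libraries lay above all resistant ones and the other among them, and the log2 fold change was -0.86 ± 0.48 (SE, edgeR unadjusted p = 0.118). Slc2a3, which encodes the high-affinity glucose carrier GLUT3, had 80.5, 46.1 and 35.6 CPM in the sensitive and 49.4, 29.5 and 25.2 CPM in the resistant libraries. The groups overlapped through resistant replicate 1, and the log2 fold change was -0.70 ± 0.35 (edgeR unadjusted p = 0.0889, adjusted p = 0.940).

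The levels of Pfkfb4 and of both carriers were read beside the neutrophil markers, since neutrophils are also cells of the liver and its blood. All 12 neutrophil markers were found and none was at 0 in any library. Their summed level was 5347, 6999.98 and 649 CPM in sensitive replicates 1 to 3 and 2163, 1564 and 339 CPM in resistant replicates 1 to 3. The libraries with the highest sums, sensitive replicates 1 and 2, were also those with the highest levels of Pfkfb4 and Slc16a3, and sensitive replicate 1 was the highest for Slc2a3. Resistant replicate 3 was the lowest for the markers, Pfkfb4 and Slc2a3. Other libraries broke this order. Slc16a3 was lowest, at 54.3 CPM, in resistant replicate 1, whose marker sum was 2163 CPM. Sensitive replicate 3, with a sum of 649 CPM, had more Pfkfb4 (35.0 CPM) than resistant replicates 1 and 2 (34.8 and 30.1 CPM). Sensitive replicate 2, with the highest sum, had less Slc2a3 (46.1 CPM) than resistant replicate 1 (49.4 CPM). The part of neutrophil RNA in these levels was not tested. The macrophage markers summed to 27537 to 41942 CPM in the sensitive and to 31379.9 to 34402 CPM in the resistant group.

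The partner carriers pointed the other way. Slc2a1, which encodes GLUT1, had 90.2, 70.9 and 65.5 CPM in the sensitive and 84.8, 99.8 and 111 CPM in the resistant libraries, and resistant replicate 1 lay below sensitive replicate 1. Its log2 fold change was 0.33 ± 0.21 (SE, edgeR unadjusted p = 0.163). Slc16a1, which encodes MCT1, was between 25.5 and 41.96 CPM in the sensitive and between 36.4 and 40.7 CPM in the resistant libraries, with a log2 fold change of 0.26 ± 0.22. Of the FPKM of Slc2a1 and Slc2a3 together, Slc2a1 made up 75.0 ± 4.75% in the sensitive and 85.2 ± 6.37% in the resistant libraries (SD, n = 3 each), and the groups overlapped. Of the FPKM of Slc16a1 and Slc16a3 together, Slc16a3 made up 74.2 ± 10.8% and 60.7 ± 7.44%, again with overlap. Slc16a7, a related carrier gene outside the set, was left out of this share. It was at 7.33 to 40.2 CPM in the sensitive and 23.4 to 32.3 CPM in the resistant libraries.

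**Figure D3:**
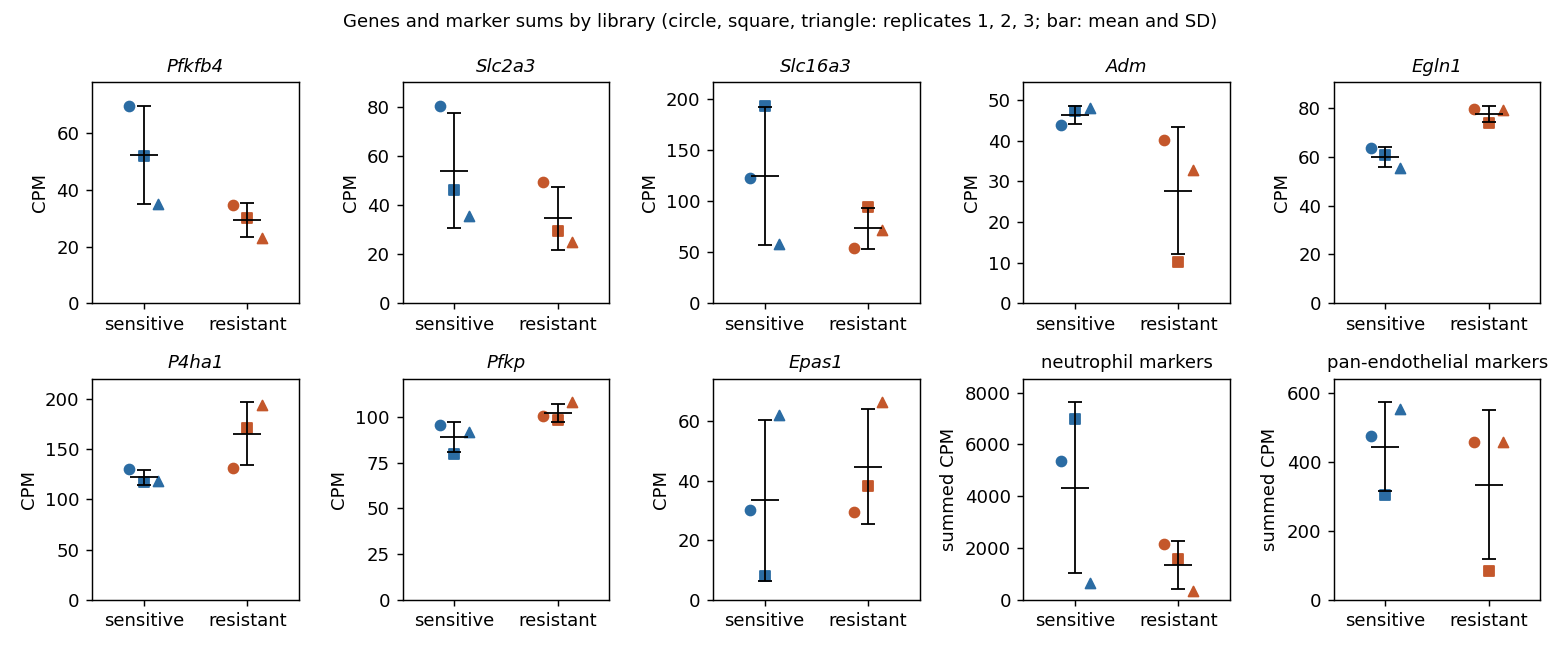
CPM of 8 genes and summed CPM of 12 neutrophil and 16 pan-endothelial markers by library, in blue for sensitive and orange for resistant, with the group mean and SD as bars. Pfkfb4 and Slc2a3 were highest in sensitive replicate 1 and lowest in resistant replicate 3, Adm was lowest in resistant replicate 2 together with the endothelial markers, and Egln1 was separated with little spread.

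The promoters of the 4 members whose groups did not overlap in CPM with or without TMM scaling are shown because HIF binds next to many of these genes. After TMM scaling 2 members were higher and 2 lower without overlap, against 4.64% and 4.38% of all genes, so these shares of 41 members are near the background. The sequences are those of RefSeq (GRCm38.p6), from 250 bases before to 50 bases after the transcription start, on the strand of the gene, with the core of the hypoxia response element, ACGTG or GCGTG on either strand, in capitals. They are chr9:108991652-108991951 (plus strand) for Pfkfb4, chr7:110627407-110627706 (plus strand) for Adm, chr8:124949205-124949504 (minus strand) for Egln1 and chr13:6648722-6649021 (minus strand) for Pfkp.
Pfkfb4: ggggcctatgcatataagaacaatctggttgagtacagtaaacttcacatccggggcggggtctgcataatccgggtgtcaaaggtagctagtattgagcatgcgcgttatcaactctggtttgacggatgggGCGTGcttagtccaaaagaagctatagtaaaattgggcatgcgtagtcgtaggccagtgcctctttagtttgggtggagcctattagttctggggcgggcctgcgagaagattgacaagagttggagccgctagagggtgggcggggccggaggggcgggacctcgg
Adm: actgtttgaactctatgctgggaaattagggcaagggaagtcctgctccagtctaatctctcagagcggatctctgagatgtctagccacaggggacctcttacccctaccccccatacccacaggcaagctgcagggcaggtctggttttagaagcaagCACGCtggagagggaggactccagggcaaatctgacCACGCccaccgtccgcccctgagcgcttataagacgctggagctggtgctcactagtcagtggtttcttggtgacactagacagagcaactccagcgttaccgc
Egln1: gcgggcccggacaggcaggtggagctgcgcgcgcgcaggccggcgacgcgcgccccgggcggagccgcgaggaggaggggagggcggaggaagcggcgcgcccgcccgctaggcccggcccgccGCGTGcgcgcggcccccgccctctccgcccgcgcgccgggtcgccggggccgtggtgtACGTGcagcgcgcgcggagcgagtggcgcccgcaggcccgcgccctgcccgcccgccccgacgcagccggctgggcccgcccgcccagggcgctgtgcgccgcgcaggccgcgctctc
Pfkp: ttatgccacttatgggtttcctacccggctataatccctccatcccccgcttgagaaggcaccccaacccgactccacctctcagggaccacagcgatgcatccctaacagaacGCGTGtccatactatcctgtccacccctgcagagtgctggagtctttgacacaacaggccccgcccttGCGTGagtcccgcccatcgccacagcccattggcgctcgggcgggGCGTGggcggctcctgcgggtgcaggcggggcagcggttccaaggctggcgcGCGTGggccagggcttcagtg
The Pfkfb4 window held 1 core, at -117 from the start, and the Adm window 2, at -90 and -54. The Egln1 window held 2 cores, at -126 and -68, and the Pfkp window 4, at -136, -68, -23 and 29. Cores thus stood in the windows of the genes that were lower and of those that were higher in the resistant libraries. Over the set, 38 of 42 genes had an entry, and Slc2a3, Epas1, Bnip3l and Ndrg1 had none. A core stood in the promoters of 33 of these 38 genes (86.8%), against 66.0% of the 10663 tested genes with an entry and 46.7% of all 27025 genes with an entry. By promoter, 42 of 55 windows held a core (76.4%), against 60.2% for tested genes and 43.8% for all genes. The E-box CACGTG, which contains the core ACGTG, stood in 10.9% of the members' windows, 9.75% of those of tested genes and 7.15% of all windows. A match of 5 letters is common and describes the sequence only.

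The oxygen sensors and HIF subunits included a member whose groups were separated with little spread. Egln1 encodes PHD2, the main hydroxylase that marks HIF alpha in normal oxygen. It had 63.6, 61.0 and 55.6 CPM in the sensitive and 79.6, 73.8 and 79.4 CPM in the resistant libraries (60.04 ± 4.11 and 77.6 ± 3.28, SD, n = 3 each). Every resistant library lay at least 10 CPM above every sensitive one. The log2 fold change was 0.30 ± 0.18 (SE), or 1.23-fold, with an edgeR unadjusted p of 0.141 and an adjusted p of 0.940. It stayed between 0.24 and 0.39 with any single library left out.

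Egln3, which encodes the hypoxia-induced PHD3, leaned the other way. It had 21.7, 12.05 and 11.04 CPM in the sensitive and 7.57, 13.6 and 11.2 CPM in the resistant libraries, with a log2 fold change of -0.50 ± 0.36 (edgeR unadjusted p = 0.202). Sensitive replicate 1 and resistant replicate 1 were the extremes and the other 4 libraries lay within 3 CPM of each other. Egln1 made up 68.5%, 78.9% and 78.8% of the FPKM of both genes in the sensitive libraries and 88.6%, 80.1% and 84.0% in the resistant ones. The groups did not overlap in this share, with means of 75.4 ± 6.02% and 84.2 ± 4.25% (SD, n = 3 each). The gap was narrow, between 78.9% in sensitive replicate 2 and 80.1% in resistant replicate 2, and the share was not tested. Another PHD gene, Egln2, is outside the set and was left out of this share. It had 85.2, 197 and 69.9 CPM in the sensitive and 97.1, 69.0 and 75.1 CPM in the resistant libraries. Its mean over all libraries was 98.9 CPM, against 68.8 CPM for Egln1. Its log2 fold change was -0.67 ± 0.46, and between -0.95 and 0.05 with any single library left out.

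The HIF subunits themselves differed by less than their errors or close to them. Hif1a, the alpha subunit found in most cells, had 222, 163 and 199.7 CPM in the sensitive and 184, 185 and 156 CPM in the resistant libraries, with a log2 fold change of -0.21 ± 0.18 (edgeR unadjusted p = 0.288). Epas1, which encodes HIF-2 alpha, an alpha subunit abundant in endothelium, had 30.3, 8.07 and 62.1 CPM in the sensitive and 29.6, 38.4 and 66.4 CPM in the resistant libraries. The 3 sensitive libraries alone covered almost the whole range of Epas1, and the log2 fold change of 0.40 ± 0.65 was -0.05 without sensitive replicate 2. Arnt, the shared partner subunit, had 99.8, 38.9 and 98.0 CPM in the sensitive and 109, 88.0 and 89.2 CPM in the resistant libraries, with a log2 fold change of 0.24 ± 0.32. Sensitive replicate 2 was the lowest library for Epas1 and Arnt and, without it, the Arnt fold change was -0.05. Hif1a made up between 69.1% and 95.0% of the FPKM of both alpha genes, 85.9 ± 9.96% in the sensitive and 78.9 ± 8.67% in the resistant libraries.

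Among the HIF targets outside glycolysis, Adm was the one whose groups separated downward. It encodes adrenomedullin, a peptide that widens vessels and stabilizes the endothelial barrier, and lies at chr7:110627661-110629820 on the plus strand. It had 43.8, 47.2 and 47.9 CPM in the sensitive and 40.1, 10.1 and 32.8 CPM in the resistant libraries. The sensitive libraries were close together (46.3 ± 2.19, SD, n = 3), and most of the spread of the resistant group (27.7 ± 15.6, SD, n = 3) came from replicate 2. The log2 fold change was -0.83 ± 0.45 (SE, edgeR unadjusted p = 0.107, adjusted p = 0.940), and -0.44 without resistant replicate 2. That library also had the lowest sum of the 16 pan-endothelial markers, 84.5 CPM against 303 to 553 CPM in the other 5 libraries, and the lowest sum of the 16 LSEC markers, 151 CPM. Elsewhere this order was broken. Sensitive replicate 2 had the next lowest sums, 303 CPM pan-endothelial and 188 CPM LSEC, with 47.2 CPM of Adm. Resistant replicate 3 had a pan-endothelial sum of 458 CPM with 32.8 CPM of Adm. The part of endothelial RNA in the level of Adm was not tested.

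P4ha1, the catalytic subunit of the collagen prolyl hydroxylase, had 131, 117 and 118 CPM in the sensitive and 132, 171 and 194 CPM in the resistant libraries. The groups were separated by less than 1 CPM between sensitive replicate 1 and resistant replicate 1, and they overlapped once the libraries were scaled by TMM. The log2 fold change was 0.38 ± 0.22 (edgeR unadjusted p = 0.129). P4ha2, which encodes the paralogous subunit, was at 10.4 to 14.3 CPM in the sensitive and 10.6 to 22.8 CPM in the resistant libraries, and P4ha1 made up between 92.6% and 95.0% of the FPKM of both. Pfkp, the platelet form of phosphofructokinase, was another member with higher levels in all resistant libraries, at 95.8, 80.0 and 91.99 CPM in the sensitive and 101, 98.2 and 108 CPM in the resistant ones, with a log2 fold change of 0.13 ± 0.17.

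The highest log2 fold changes after Gapdh belonged to genes with few counts and wide errors. Ankrd37, an ankyrin repeat gene induced by HIF, had 10, 28 and 6 counts in the sensitive and 9, 49 and 31 counts in the resistant libraries, and a log2 fold change of 0.81 ± 0.92. Aldoc, the brain form of aldolase, had 2.95, 2.67 and 4.62 CPM in the sensitive and 4.63, 3.19 and 8.37 CPM in the resistant libraries, with a log2 fold change of 0.59 ± 0.47. Eno2, the neuronal enolase, had 4.48, 11.1 and 6.18 CPM in the sensitive and 3.96, 18.7 and 11.4 CPM in the resistant libraries, with a log2 fold change of 0.56 ± 0.65. In each of these genes the groups overlapped, and the unadjusted p in edgeR's test was between 0.242 and 0.418.

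Apart from Ndrg1, the other HIF targets had log2 fold changes below or near their errors. Ndrg1, a stress-induced gene of the N-myc downstream regulated family, was at 41.8 to 47.6 CPM in the sensitive libraries and at 28.5, 48.4 and 29.2 CPM in the resistant ones, with a log2 fold change of -0.41 ± 0.27. Hilpda had a log2 fold change of 0.28 ± 0.25, Kdm3a, a histone demethylase, 0.20 ± 0.28, and Vldlr, a lipoprotein receptor, 0.47 ± 0.62. The mitophagy receptors Bnip3 and Bnip3l had log2 fold changes of -0.18 ± 0.27 and -0.07 ± 0.22. Car9, a cell-surface carbonic anhydrase widely used as a marker of hypoxic tumour cells, was low, at 1.59 to 7.59 CPM, with a log2 fold change of 0.32 ± 0.52. Car12, a related carbonic anhydrase, had 1 to 12 counts and failed the filter, as did the second Aldoa row (ENSMUSG00000114515) with 3 to 33 counts.

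**Figure D4:**
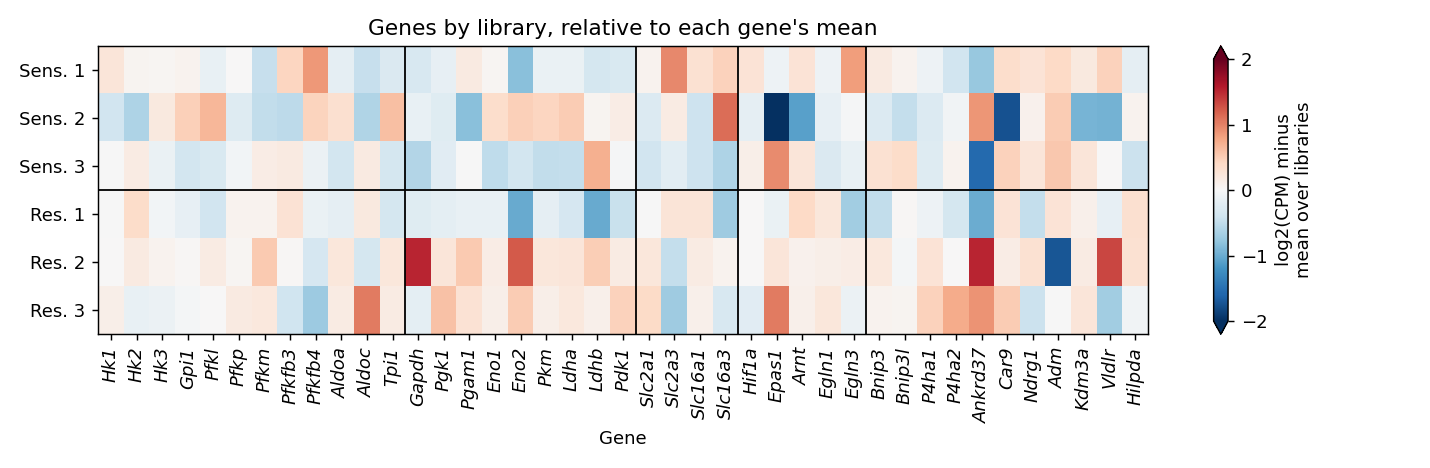
Log2 CPM of the 41 tested rows in each library, minus the mean over the 6 libraries, with red above and blue below that mean and colours ending at 2 on either side. Sensitive replicate 2 shows the darkest blue for Epas1 and Car9, and resistant replicate 2 is red for Gapdh and Vldlr and blue for Adm.

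The isoforms within the set stood in the same order in all libraries, except Pfkfb3 and Pfkfb4, which were near equal in sensitive replicate 2. Relatives outside the set were left out of each share. Among the hexokinases, which trap glucose in the cell, Hk3 made up 69.4% to 82.3% of the FPKM of the 3 genes, Hk2 10.9% to 21.8% and Hk1 6.75% to 10.6%. Hk3 is the form typical of myeloid cells, and its log2 fold change was -0.15 ± 0.22, against 0.19 ± 0.23 for Hk2 and 0.02 ± 0.19 for Hk1. Among the phosphofructokinases, which commit the sugar to glycolysis, the liver form Pfkl made up 64.3% to 83.1%, Pfkp 12.4% to 24.95% and the muscle form Pfkm 4.53% to 11.2%. Pfkl had a log2 fold change of -0.28 ± 0.37 and Pfkm of 0.46 ± 0.31.

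In every library Aldoa made up at least 99.6% of the FPKM of Aldoa and Aldoc. Likewise, Eno1 made up at least 96.7% of that of Eno1 and Eno2, and Ldha at least 96.1% of that of Ldha and Ldhb. The enolase sum left out Eno3, at 13.3 to 45.3 CPM, and the copy Eno1b, with 3001 to 5342 counts. Ldhb, the form of lactate dehydrogenase common in heart, was at 2.99 to 9.88 CPM and had a log2 fold change of -0.27 ± 0.50. Pdk1, the kinase that shuts pyruvate out of the mitochondria and a HIF target, was at 9.17 to 17.3 CPM, with a log2 fold change of 0.08 ± 0.34. Bnip3l made up 76.6% to 84.8% of the FPKM of the BNIP3 pair. In all these families the shares of the groups overlapped.

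**Figure D5:**
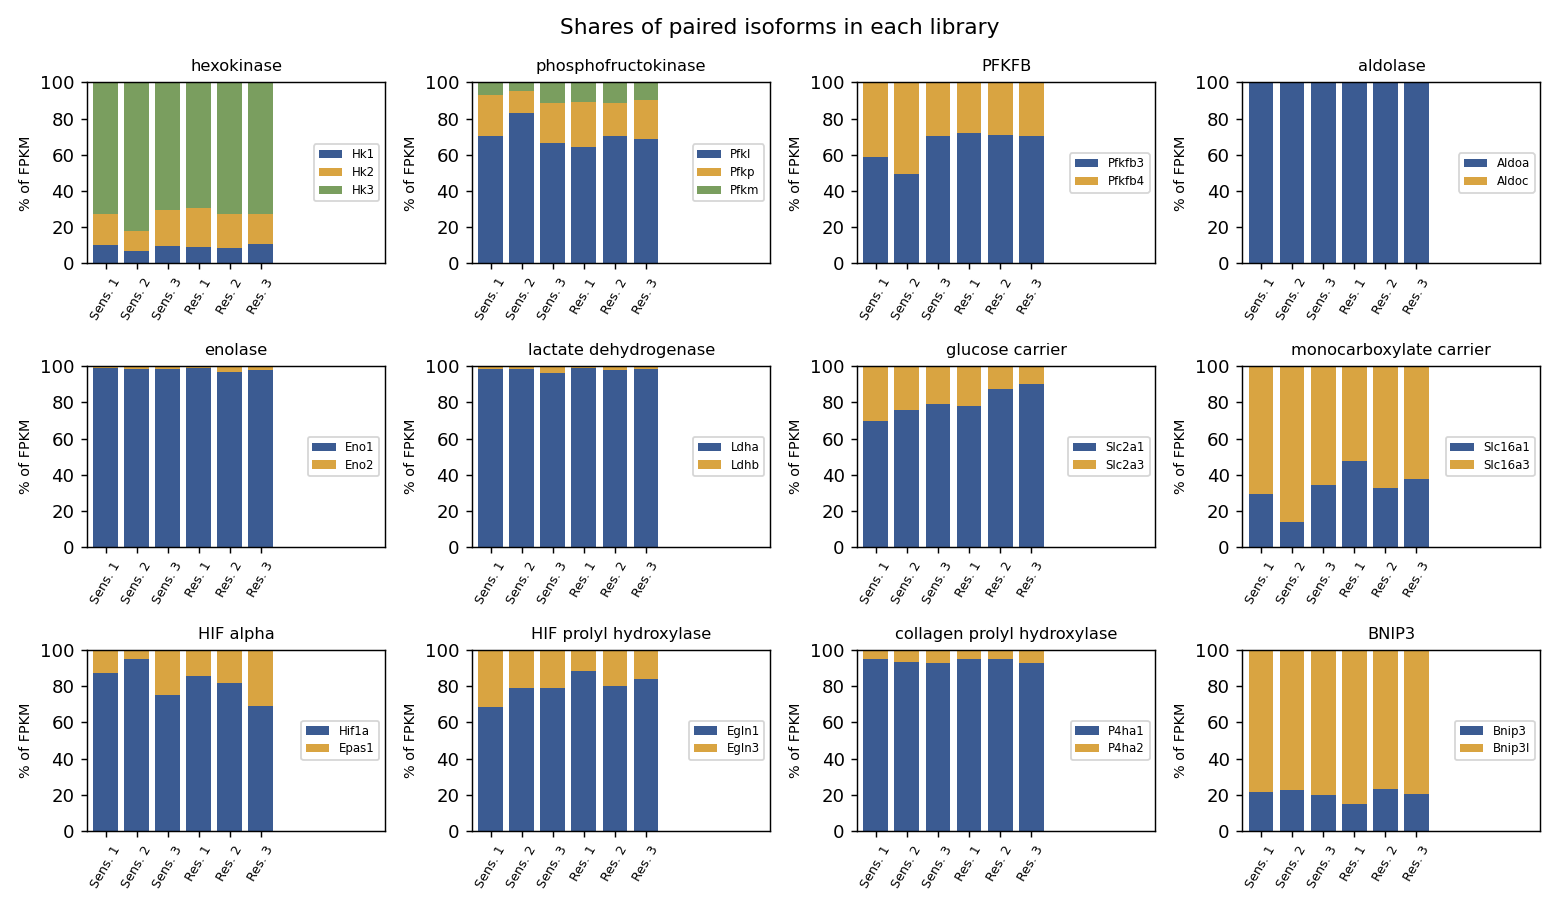
Share of each isoform in the summed FPKM of the set's members of its family (percent) in the 6 libraries, for 12 families. Relatives outside the set, such as Egln2, Eno3 and Slc16a7, are left out. Aldoa, Eno1 and Ldha fill nearly all of these sums in every library, and Hk3 leads the hexokinases. The shares of Pfkfb3 and of Egln1 are higher in all resistant than in all sensitive libraries, with narrow gaps.

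By role, the 12 tested rows of upper glycolysis split into 6 with higher and 6 with lower levels in the resistant group, with a median log2 fold change of -0.05. The 9 genes of lower glycolysis and lactate metabolism split into 5 higher and 4 lower (median 0.08), the 4 carriers into 2 and 2 (median -0.22), the 5 oxygen sensors and HIF subunits into 3 and 2 (median 0.24) and the 11 tested HIF targets into 7 and 4 (median 0.25). None of these signs passed an adjusted test, and the medians stand beside 0.01 for all genes.

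Further genes of the same pathways were read from longer lists. Of 38 other genes of glycolysis and pyruvate metabolism 30 were tested, 20 were higher and 10 lower, 0 had an unadjusted p under 0.05 in edgeR's test, and the median log2 fold change was 0.11. Among those with a mean of at least 1 CPM, the largest differences were in Slc2a6, a glucose carrier family member of myeloid cells, at -1.20 ± 0.61, Pdk4, a kinase of pyruvate dehydrogenase, at -0.73 ± 0.54, the muscle enolase Eno3 at -0.72 ± 0.51 and the carrier gene Slc2a8 at 0.53 ± 0.26. Eno3 had 45.3 CPM in sensitive replicate 2 and 13.3 to 22.6 CPM in the others. With single libraries left out, its log2 fold change was between -1.04 and 0.04. Of 56 other hypoxia and HIF pathway genes 50 were tested, 27 were higher and 23 lower, with a median log2 fold change of 0.06.

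In the longer hypoxia list, 2 genes were lower and 1 was higher at an unadjusted p under 0.05, and 0 at an adjusted p under 0.05. Over all genes 393 were lower and 83 higher at an unadjusted p under 0.05, which is 3.08% in all. Pgf, which encodes placental growth factor, a ligand of VEGF receptor 1 that bevacizumab does not bind, had 5.60, 11.9 and 10.5 CPM in the sensitive and 2.36, 1.32 and 3.12 CPM in the resistant libraries. Every resistant library lay below every sensitive one, with a log2 fold change of -2.15 ± 0.50 (edgeR unadjusted p = 0.00338, adjusted p = 0.940). Nos2, the inducible nitric oxide synthase, had 258, 151 and 16 counts in the sensitive and 21, 19 and 9 counts in the resistant libraries, and a log2 fold change of -3.25 ± 0.95 (edgeR unadjusted p = 0.0112), with sensitive replicate 3 among the resistant libraries. Gbe1, the glycogen branching enzyme, had 61.2, 34.6 and 40.1 CPM in the sensitive and 57.8, 77.6 and 110.5 CPM in the resistant libraries, with a log2 fold change of 0.82 ± 0.31 (edgeR unadjusted p = 0.0314). Arg1, the arginase that competes with NOS2 for arginine, ranged from 983 to 12109 counts and had a log2 fold change of 1.157 ± 0.92.

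Of 7 gluconeogenesis genes 5 were tested, 3 were higher and 2 lower, and 0 had an unadjusted p under 0.05 in edgeR's test. The fructose bisphosphatase gene Fbp1, which reverses the phosphofructokinase step, was at or under 60 counts in every library, with a log2 fold change of -1.86 ± 0.90. Pcx, which encodes pyruvate carboxylase, had a log2 fold change of 0.77 ± 0.42.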

How the data were processed

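RNA-seq counts per gene of 3 sensitive and 3 resistant libraries were read from the deposited table, and samples were grouped by their titles. The authors made the counts with HISAT2 2.0.5 and featureCounts 1.5.0-p3 and deposited them without normalization. The deposited FPKM values equal count over library total and gene length, within a relative difference of 9.55e-15 in 10181 genes with over 50 counts. The submitters' processing notes name mm9, but the files hold no coordinates, and those given here are of GRCm38 (GENCODE M21 for genes, RefSeq for promoters). Poly(A) selection and removal of ribosomal RNA are each named in the methods. A further table holds the authors' own DESeq2 comparison (fold changes and p-values) and was not used.

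Genes were filtered with filterByExpr, scaled by TMM and tested with edgeR 4.0.16 in R 4.3.3 (quasi-likelihood, robust, two-sided, no covariate), with Benjamini-Hochberg adjustment over 15474 genes and a threshold of 0.05. The standard error is the absolute log2 fold change over the square root of F. The fits were tested on simulated data. The genes and lists were chosen with earlier results of these data known. Full values are given for members with an unadjusted p under 0.05, the 4 highest and 4 lowest log2 fold changes with a mean of at least 1 CPM, HIF and PHD genes, the 5 highest mean FPKM and members that failed the filter. P4ha1, Pfkp, Pfkfb3, Slc2a1 and other members given by library were added after their values were seen. Of each further pathway list, at most 4 genes with the largest log2 fold changes and those with an unadjusted p under 0.05 are named. Egln2 and Slc16a7 were added after their values were seen, as relatives of members with shares. Alternatives were DESeq2 1.42.0, limma-voom (limma 3.58.1), other size factors and filters, a replicate block and each library left out. Figures were drawn with matplotlib 3.10.9.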

Additional observations from a re-analysis of the deposited data

How the results depend on the processing

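The count of 0 genes with an adjusted p under 0.05 became 24 with DESeq2's Wald test and 2 with no filter on low counts, and stayed 0 under the other settings tried. No member was among the calls at an adjusted p in any setting. The 1 member with an unadjusted p under 0.05 became 2 with no filter (Gapdh and Pfkfb4), 2 with the replicate block (Pfkfb4 and Slc2a3), 2 with both replicates 2 left out, a setting chosen after seeing the data (Egln1 and Ndrg1), and between 0 and 4 with single libraries left out. It was 0 without sensitive replicate 1 or resistant replicate 3 and 4 without resistant replicate 1 (P4ha1, Pfkfb4, Pgk1 and Slc2a3). Samples of the same number had deviations correlated at -0.001, 0.03 and 0.19. The labels do not say whether samples of the same number were handled together. These correlations cannot settle it, since samples of different numbers were not compared in this way. The replicate block left 467 unadjusted calls over all genes against 476. The cause of these changes was not tested. Of 532 values of single members under the alternatives, 490 had the same sign and the same side of an adjusted p of 0.05, and 42 changed sign, over 21 genes. Outside the leave-one-out settings, 4 genes did so. Eno1, Ldha and Pkm had log2 fold changes of 0.038, 0.028 and 0.076 with library totals alone and 0.059, 0.051 and 0.097 with no filter. Eno1 and Pkm had 0.0070 and 0.048 with limma-voom and 0.0089 and 0.052 with the replicate block, and Hk1 had -0.0060 with at least 10 counts in every library. With single libraries left out, log2 fold changes that changed sign ranged as follows over the settings: Aldoa -0.099 to 0.37, Arnt -0.054 to 0.44, Bnip3 -0.34 to 0.032, Bnip3l -0.22 to 0.13, Car9 -0.095 to 0.66, Eno1 -0.25 to 0.27, Eno2 -0.024 to 1.11, Epas1 -0.052 to 1.23, Gpi1 -0.44 to 0.080, Hk1 -0.078 to 0.11, Hk3 -0.24 to 0.018, Kdm3a -0.052 to 0.40, Ldha -0.26 to 0.37, Ldhb -0.63 to 0.076, P4ha2 -0.11 to 0.50, Pdk1 -0.12 to 0.32, Pfkfb3 -0.32 to 0.033, Pfkl -0.47 to 0.19, Pkm -0.21 to 0.38, Tpi1 -0.31 to 0.37, Vldlr -0.41 to 0.83. The members' median log2 fold change of 0.08 was between -0.024 and 0.17 with single libraries left out. Group differences in isoform share were also taken with each library left out, giving 72 values. With 3 libraries per group, leaving 1 out cannot move such a difference by 1 SD. That limit was met by all 72 values and therefore says nothing of their stability. Depth limits what can be read from Car12, Ankrd37 and the extra Aldoa row, with at most 49 counts.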
